A study of Mus musculus with 13 samples.

Results

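The genes described are the forkhead (Fox) transcription factors of the mouse, and the measurements are levels of 5-hydroxymethylcytosine (5hmC) in DNA of knee cartilage. A region belonged to the family when the deposited tables named a gene from Foxa to Foxs, with a number, as its nearest gene. This gave 340 of the 181833 regions in 3 tables. They were 65 of 43378 regions in WT DMM against WT sham, 125 of 65969 in MUT DMM against WT DMM and 150 of 72486 in MUT DMM against WT sham. Of the 44 forkhead genes in the RefSeq table, 36 from 18 subfamilies had at least 1 region, and 17 had regions in all 3 tables. Foxb1, Foxd2, Foxe1, Foxf2, Foxh1, Foxj1, Foxp3 and Foxr2 had no region listed. Among the listed regions the members were chosen by gene name alone. The tables themselves list only regions with a window p of at most 0.0001.

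The study asked, by its title, about 5hmC made by TET1 in osteoarthritis. MUT DMM knees came from mice whose genotype is labelled TET-/-, 6 weeks after DMM, surgical destabilisation of the medial meniscus, which leaves the joint unstable and brings on osteoarthritis. The labels do not say how the mutant allele was made or in which cells it acts. WT DMM knees had the same operation in TET1+/+ mice, and WT sham knees, also TET1+/+, had the joint opened without further surgery. All mice were males of the mixed strain B6;129S4, aged 3 to 4 months by the design text or 4 to 6 months by the surgery protocol. Each control was on the opposite leg, so a DMM and a sham library may come from the same animal. MUT sham and the background control were not analysed here, so the genotype was compared only after DMM and no background was subtracted.

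Forkhead factors bind DNA through a winged-helix domain, and some can open compact chromatin. Foxo factors are held out of the nucleus when insulin or growth factor signalling through Akt phosphorylates them, and in cartilage they are known for sustaining autophagy and antioxidant defence. Foxa2 and Foxa3 are known from mouse chondrocytes as activators of the hypertrophic programme, Foxc1 and Foxc2 act in skeletal development, and Foxp1, Foxp2 and Foxp4 act largely as repressors during bone formation from cartilage. TET enzymes oxidise 5-methylcytosine to 5hmC, which is commonly found along active genes and enhancers.

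The assay reads 5hmC at CCGG, the site cut by the enzyme MspI. Fragments are kept only when glucose, placed on 5hmC by a glucosyltransferase, protects their ends from another MspI digest. The promoter windows below run from 250 bases before to 50 bases after a RefSeq start site (GRCm38.p6, the coordinates of mm10), and are shown because a called region overlapped them. Each is printed 5′ to 3′ on the strand of its gene, with every CCGG in capitals. Foxk2 is on the plus strand at chr11:121259737-121260036, Foxc1 on the plus strand at chr13:31806396-31806695, Foxo3 on the minus strand at chr10:42276646-42276945 and Foxp1 on the minus strand at chr6:99520944-99521243.
Foxk2: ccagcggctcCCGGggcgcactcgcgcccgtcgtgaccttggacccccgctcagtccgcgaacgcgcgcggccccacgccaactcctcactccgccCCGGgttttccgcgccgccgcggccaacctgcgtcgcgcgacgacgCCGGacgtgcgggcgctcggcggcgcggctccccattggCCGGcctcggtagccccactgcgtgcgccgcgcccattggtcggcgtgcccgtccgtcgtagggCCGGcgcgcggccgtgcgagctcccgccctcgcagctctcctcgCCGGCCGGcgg
Foxc1: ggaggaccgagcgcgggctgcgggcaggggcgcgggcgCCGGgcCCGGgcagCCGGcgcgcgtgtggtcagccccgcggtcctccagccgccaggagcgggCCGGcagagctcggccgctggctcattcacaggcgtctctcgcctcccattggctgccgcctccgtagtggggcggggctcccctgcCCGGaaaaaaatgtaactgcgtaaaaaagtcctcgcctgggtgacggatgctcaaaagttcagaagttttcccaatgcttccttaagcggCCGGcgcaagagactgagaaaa
Foxo3: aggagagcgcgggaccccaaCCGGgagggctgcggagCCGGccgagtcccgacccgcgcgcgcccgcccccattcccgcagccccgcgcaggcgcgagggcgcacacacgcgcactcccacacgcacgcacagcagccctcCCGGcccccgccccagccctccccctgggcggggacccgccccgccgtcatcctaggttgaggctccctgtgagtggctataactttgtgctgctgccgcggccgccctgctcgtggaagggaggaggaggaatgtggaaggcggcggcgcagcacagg
Foxp1: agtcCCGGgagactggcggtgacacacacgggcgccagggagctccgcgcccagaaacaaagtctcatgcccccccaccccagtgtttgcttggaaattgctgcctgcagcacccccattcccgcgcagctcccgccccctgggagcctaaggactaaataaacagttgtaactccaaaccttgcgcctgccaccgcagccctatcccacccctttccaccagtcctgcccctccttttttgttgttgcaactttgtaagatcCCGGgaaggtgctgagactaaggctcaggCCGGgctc
These windows hold 7 CCGG in Foxk2, 6 in Foxc1, 3 in Foxo3 and 3 in Foxp1. CCGG reads the same on both strands, and neighbouring sites in Foxk2 abut without overlap. At least 1 CCGG was present in 26 of 33 forkhead promoter windows (78.8%), against 17338 of 32851 windows of all genes (52.8%). A match to CCGG gives a place the assay can read and says nothing of 5hmC by itself.

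The libraries differed widely in depth, and levels can be compared within a table only, because each table was scaled on its own. The unit of a level is the normalized read count of a region, and within 0.02 a library's values were whole multiples of the worth of 1 read in 99.9955% or more of the regions. The tables held 2 distinct MUT DMM, 3 WT DMM and 3 WT sham libraries, since a pair of the 3 MUT DMM entries was identical in every region and was counted once. One WT DMM library, listed first, was nearly empty and held 5 reads in the forkhead regions of WT DMM against WT sham, against 766 and 1347 in the other WT DMM libraries and 1100 to 4151 in WT sham. In MUT DMM against WT DMM the deeper and shallower MUT DMM libraries held 10489 and 671 reads, against 78 in that nearly empty library and 3577 and 4568 in the other WT DMM libraries. In MUT DMM against WT sham the MUT DMM libraries held 5197 and 535 reads, against 4275 to 15572 in WT sham. A single read of the shallower MUT DMM library was worth 9.45 normalized counts there, so its levels moved in coarse steps. In tissue DNA of mixed cells, fewer cells of a type and less 5hmC per cell cannot be told apart. Defining chondrocyte genes, 10 in all, had higher regions at 4 and lower at 1 in WT DMM against WT sham, at 5 and 4 in MUT DMM against WT DMM, and at 7 and 3 in MUT DMM against WT sham. The counts of genes with a higher and with a lower region follow in the same order of tables. They were 6 and 0, 2 and 5, and 4 and 2 of 7 synovial and fibroblast genes, and 4 and 3, 6 and 2, and 2 and 4 of 7 skeletal muscle genes. Endothelial genes, 5 in all, gave 4 and 2, 3 and 5, and 2 and 5, and 7 bone and marrow genes gave 4 and 0, 3 and 2, and 3 and 4. For 5 adipocyte genes they were 3 and 0, 1 and 3, and 3 and 3. Over all protein-coding genes 42.7% had a higher and 7.36% a lower region in WT DMM against WT sham, 37.4% and 47.8% in MUT DMM against WT DMM, and 38.9% and 48.6% in MUT DMM against WT sham. Their part in the results was not tested. 5hmC regions do not give RNA levels, so the tissue label could not be checked by expression.

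**Figure D1:**
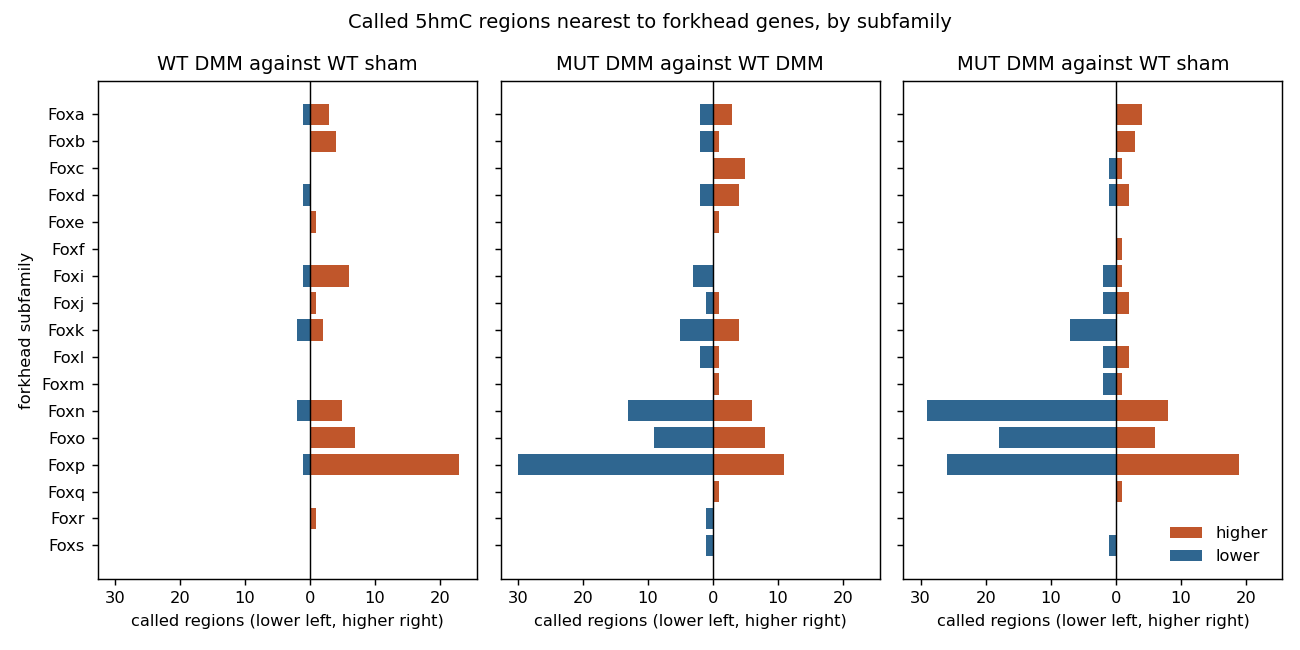
Number of called regions nearest to the forkhead subfamilies reported here in the 3 tables, with regions lower in the first-named group to the left of 0 and higher ones to the right. Foxp held 23 higher and 1 lower region in WT DMM against WT sham, and 11 higher and 30 lower in MUT DMM against WT DMM.

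After DMM in wild-type knees, called forkhead regions were mostly higher than in sham knees. A region is called when its adjusted p in the authors' deposited tables is under 0.05, and its direction is that of the group means. All 65 forkhead regions were called, as were 99.7% of all regions listed, since the tables list only regions with a window p of at most 0.0001. Of the 65, 57 were higher and 8 lower in WT DMM, a share of 87.7% higher, against 93.4% of all called regions (93.2% of all listed were called higher and 6.53% lower). The 57 higher regions had a median of 7.43 normalized counts in WT DMM and 2.87 in WT sham, so the group means differed at a low level. The 8 lower regions had a median of 43.3 in WT DMM and 80.5 in WT sham. Direction went with level: of 55 regions with a sham mean under 10 all 55 were higher in WT DMM, and of 10 with a sham mean of 10 or more only 2 were. Over all called regions, 99.99% and 46.1% were higher in the same classes. The sham mean enters both the class and the direction, and only regions past a p-value for this difference are listed. The split is therefore partly fixed by the listing and is no result about forkhead genes.

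Foxp regions made up the largest subfamily here, with 23 higher and 1 lower in WT DMM. Foxp1 had 11 higher and 1 lower, Foxp2 had 11 higher and Foxp4 had 1 higher. The called Foxp region of smallest adjusted p lay in Foxp1 (chr6:99269541-99269820, mm10), within the gene. Its WT DMM libraries read 0, 8.0 and 20.8 normalized counts, against 2.56, 2.15 and 1.88 in WT sham. Both deeper WT DMM libraries lay above all sham libraries, and the nearly empty first library lay below them.

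All 7 Foxo regions were higher in WT DMM, with 4 at Foxo3, 2 at Foxo1 and 1 at Foxo6. A region inside Foxo3 (chr10:42246321-42246600) read 0, 14.7 and 23.9 in WT DMM, against 4.16, 7.15 and 3.25 in WT sham. Foxi, a subfamily known from ion-transporting epithelia, had 6 higher and 1 lower, and Foxn had 5 and 2. Foxb, known mainly from neural development, had 4 higher and none lower. Foxa had 3 higher and 1 lower, Foxk had 2 and 2, Foxe, Foxj and Foxr had 1 higher each, and Foxd had 1 lower.

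The region of smallest adjusted p in each remaining subfamily also had the first WT DMM library at 0. At Foxn3 (chr12:99269921-99270260), inside the gene, the WT DMM libraries read 0, 20.01 and 25.0, against 2.56, 6.44 and 4.96 in WT sham. At Foxk2 (chr11:121262821-121263100), inside the gene, they read 0, 14.7 and 9.37, against 3.52, 2.86 and 1.54. In both, the other two WT DMM libraries lay above all sham libraries. The same held outside Foxe3 (chr4:114931981-114932240), with 0, 8.0 and 12.5 in WT DMM, against 1.28, 3.58 and 1.54 in WT sham. It held far outside Foxi2 (chr7:135450401-135450780), with 0, 9.34 and 17.7, against 2.56, 5.01 and 3.42. It also held at Foxr1 (chr9:44437941-44438240), a gene known mainly from germ cells, with 0, 8.0 and 10.4, against 2.24, 4.29 and 2.39. Other regions rested on fewer libraries. Outside Foxb2 (chr19:16900961-16901340) the WT DMM libraries read 0, 10.7 and 30.2, against 6.73, 7.87 and 3.76 in WT sham. Beside Foxj2 (chr6:122817121-122817340) they read 0, 2.67 and 14.6, against 2.88, 2.86 and 1.20. In these 2 regions the mean of WT DMM was below that of WT sham without the third WT DMM library. At Foxd4 (chr19:24900141-24900340), the single Foxd region, they read 0, 46.7 and 13.5, against 34.0, 38.6 and 36.9, with the sham libraries between the deeper WT DMM libraries.

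The 8 lower regions lay at Foxa3, Foxd4, Foxi3, Foxk2 (2), Foxn3 (2) and Foxp1, and are named one by one after their values were seen. At Foxa3 (chr7:19014581-19014800) the WT DMM libraries read 0, 86.7 and 78.1, against 90.0, 91.6 and 89.4 in WT sham. At Foxp1 (chr6:98948821-98949080) they read 0, 86.7 and 63.5, against 82.3, 85.8 and 80.3. In both, the first WT DMM library alone was at 0. The nearly empty library was at 0 in 6 of the 8 lower and in 56 of the 57 higher regions. Group means lay 1.5-fold or more apart in 8 of the 8 lower regions with that library and in 2 of 8 without it, while over all regions called lower the shares were 90.2% and 47.1%. The 2 that stayed apart were the Foxk2 promoter region and the one at Foxi3 (chr6:70956001-70956340). The Foxi3 libraries read 31.4, 48.0 and 30.2 in WT DMM, against 168, 41.5 and 36.9 in WT sham, and 1 sham library lay far above the other two.

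The region over the Foxk2 promoter (chr11:121259901-121260160), printed above, held 4 of the 7 CCGG sites of that window. Foxk2 encodes a factor known to restrain autophagy genes in fed cells. Its WT DMM libraries read 31.35, 29.35 and 12.5, against 26.6, 65.1 and 97.2 in WT sham. The mean was 24.4 ± 10.4 in WT DMM and 63.0 ± 35.4 in WT sham (SD, n = 3 each). The groups overlapped at the first sham library, and the first WT DMM value rested on 2 reads. limma's log2 difference was -1.25 ± 1.32 (SE, adjusted p = 1), and -1.48 ± 0.63 (adjusted p = 0.0585) without the first WT DMM library.

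Spread between libraries was large in this table. Groups did not overlap in 1 of the 57 higher and 1 of the 8 lower forkhead regions (1.07% and 26.2% of all regions called in those directions). Without the nearly empty library this was so in 49 and 1 (85.3% and 31.0% of all). limma on log2(value + 1), fitted over all 43378 regions, called 0 forkhead regions at an adjusted p under 0.05, 0 at an unadjusted p under 0.05, and 0.0% of all regions. Without the nearly empty library it called 46 forkhead regions at 17 genes, all higher in WT DMM, with adjusted p from 0.0205 to 0.0428, among 74.3% of all regions. Of these, 10 were at Foxp1 and 8 at Foxp2. Since the tables list regions already chosen for a difference between these same libraries, limma's calls are no independent check.

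**Figure D2:**
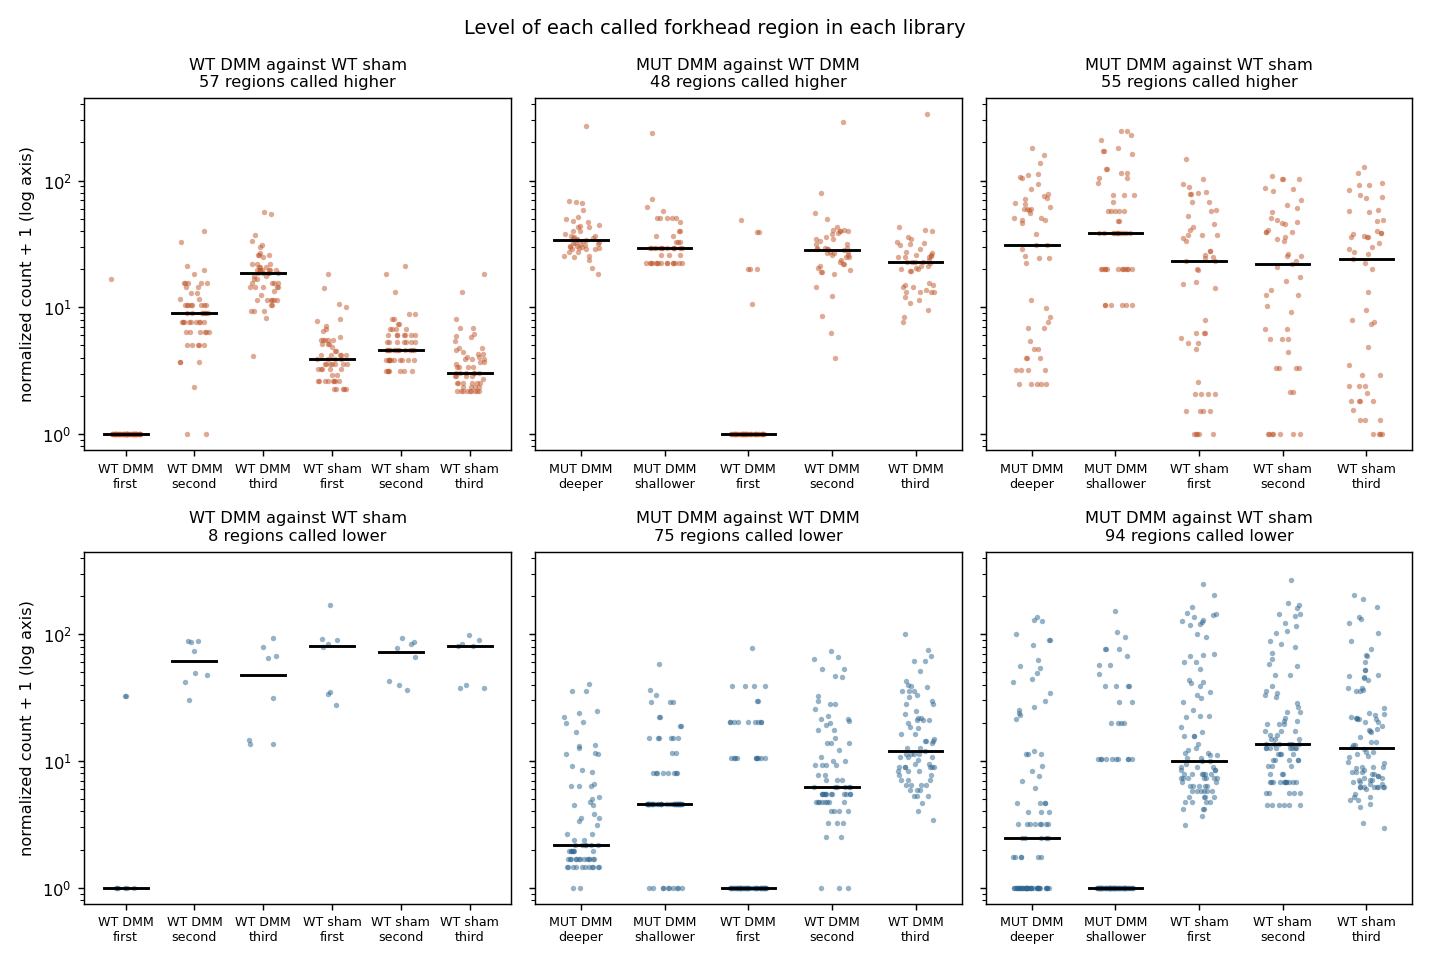
Level of every called forkhead region in each library, as normalized count plus 1 on a log axis, with regions called higher in the upper row, those called lower in the lower row, and a bar at the median. The first-listed WT DMM library sits at 0 in 56 of the 57 regions called higher in WT DMM against WT sham, and the shallower MUT DMM library sits at 0 in 64 of the 94 called lower in MUT DMM against WT sham.

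MUT DMM knees, set against WT DMM knees, had more lower than higher forkhead regions. Of 125 regions 123 were called, 48 higher and 75 lower in MUT DMM (98.9% of all listed regions were called, 34.2% higher and 64.7% lower). The share higher was 39.0% of called forkhead regions and 34.6% of all called regions. Leaving out a single library could reverse this majority, to 72 higher and 51 lower. The 2 that were not called lay at Foxa2 and Foxl2, with adjusted p of 0.883 and 1.0 in the authors' deposited table. Higher regions had a median level of 30.8 in MUT DMM, against 16.6 in WT DMM, and lower regions one of 2.36, against 6.27. Of 73 regions with a WT DMM mean of 10 or more 42 were higher in MUT DMM, and of 50 below that level 6 were. Over all called regions 52.4% and 16.6% were higher in those classes. Here too the reference mean, that of WT DMM, enters both the class and the direction.

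Foxp regions were again the most numerous, with 11 higher and 30 lower in MUT DMM. Foxp1 had 2 higher and 14 lower, Foxp2 8 and 12, and Foxp4 1 and 4. At Foxp2 the 12 lower regions all had a WT DMM mean under 10, and 7 of its 8 higher regions had one of 10 or more. At Foxp1 the lower regions were found at both levels, 7 with a WT DMM mean of 10 or more and 7 below it. The difference between these paralogs was not tested.

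Foxo regions were split, with 8 higher and 9 lower. Foxo1 had 2 higher and 4 lower, Foxo3 3 and 4, and Foxo6 3 and 1. The called Foxo region of smallest adjusted p (chr10:42228401-42228680), inside Foxo3, read 1.17 and 3.55 in the deeper and shallower MUT DMM libraries, against 0, 6.02 and 11.6 in WT DMM. The MUT DMM values lay between the nearly empty WT DMM library and the other two. Foxn, which includes the checkpoint factor Foxn3, had 6 higher and 13 lower, and Foxn3 itself 3 and 8. A region inside Foxn2 (chr17:88457521-88457960) read 34.6 and 28.4 in MUT DMM, against 76.5, 72.2 and 73.7 in WT DMM. Its groups did not overlap, and all 3 WT DMM libraries, the first with 8 reads, lay within a narrow range.

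Foxc1 and Foxc2 had 5 regions, all higher in MUT DMM. At the Foxc1 promoter (chr13:31806081-31806440), whose overlap with the printed window holds 1 CCGG, the MUT DMM libraries read 51.0 and 49.8, against 0, 54.2 and 31.1 in WT DMM. The second WT DMM library was above both MUT DMM libraries. The 3 Foxc2 regions had a median of 29.9 in MUT DMM against 16.8 in WT DMM, with the nearly empty library counted. Their groups did not overlap in 1 of the 3. Without that library limma's log2 differences were 0.418, 0.025 and 0.424 (adjusted p of 0.496, 0.969 and 0.592). The single Foxm1 region (chr6:128365581-128365860), at a gene known for driving mitosis, read 67.6 and 71.1 in MUT DMM, against 38.2, 42.1 and 39.0 in WT DMM. The single Foxe3 region (chr4:114925161-114925660), at a gene known for lens development, read 33.9 and 28.4 in MUT DMM, against 0, 11.3 and 9.74 in WT DMM. In these 2 regions the groups did not overlap.

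The smaller subfamilies went either way. Foxd had 4 higher and 2 lower in MUT DMM, Foxa 3 and 2, Foxk 4 and 5, and Foxj 1 and 1. Foxb and Foxl had 1 higher and 2 lower each, Foxi had 3 lower, Foxq 1 higher, and Foxr and Foxs 1 lower each. The region of smallest adjusted p at Foxj2 (chr6:122837521-122837800), inside the gene, read 1.40 and 0 in MUT DMM, against 9.56, 9.03 and 10.3 in WT DMM. Every WT DMM library lay above both MUT DMM libraries, although the first WT DMM value was 1 read.

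At Foxl1 (chr8:121128381-121128600), a gene known from gut mesenchyme, the libraries read 12.4 and 14.2 in MUT DMM, against 19.1, 27.1 and 23.7 in WT DMM, and the groups did not overlap. At Foxs1 (chr2:152932881-152933200) they read 21.1 and 14.2, against 0, 45.9 and 60.9. Both deeper WT DMM libraries lay above MUT DMM and the nearly empty one below it, and limma's log2 difference was 0.36, against the direction of the means. At the Foxi1 region it was 0.20 and also went against the means. limma's difference did so in other regions called lower as well, at Foxn3 and Foxp1 among them. The Foxq1 region (chr13:31558981-31559200) was called higher, at 29.0 and 21.3 in MUT DMM, against 0, 27.8 and 20.1 in WT DMM, and its groups overlapped. In 7 further subfamilies the region of smallest adjusted p was low in MUT DMM. In MUT DMM these read 0.47 and 3.55 at Foxa3 (chr7:19019901-19020180), against 0, 3.76 and 7.91 in WT DMM. Outside Foxb2 (chr19:16845041-16845320) they read 0.47 and 3.55, against 0, 5.27 and 7.91, and outside Foxd4 (chr19:24891561-24891840) 0.47 and 3.55, against 0, 4.51 and 7.31. At Foxi1 (chr11:34204901-34205180) they read 0.47 and 3.55, against 0, 0 and 10.3. The equal MUT DMM values stand for 2 reads of the deeper and 1 read of the shallower library. Outside Foxp2 (chr6:15559741-15560040) the same values stood against 0, 8.27 and 7.31 in WT DMM. Outside Foxk1 (chr5:142396661-142397040) the libraries read 1.40 and 3.55, against 0, 6.77 and 15.2. At Foxr1 (chr9:44439921-44440120) they read 0.70 and 3.55, against 0, 5.27 and 4.26. In these 7 regions the groups overlapped at the nearly empty WT DMM library, and at Foxi1 also at the second WT DMM library, which read 0. The direction at Foxa3, Foxi1 and Foxr1 turned when a single library was left out.

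The Foxk2 and Foxo3 promoter readings can be set beside the printed windows. The Foxk2 region (chr11:121259701-121260120) held all 7 CCGG sites and read 67.15 and 46.2 in MUT DMM, against 47.8, 39.9 and 23.7 in WT DMM. The mean was 56.7 ± 14.8 (SD, n = 2) in MUT DMM and 37.1 ± 12.3 (SD, n = 3) in WT DMM. The groups overlapped at the first WT DMM library, which rested on 5 reads, and limma's adjusted p was 0.922. The Foxo3 region (chr10:42276381-42276760) read 41.9 and 31.99 in MUT DMM, against 0, 33.9 and 25.6 in WT DMM, and the groups overlapped there too. None of the 3 CCGG of the printed Foxo3 window lies inside that region. The Foxj3 promoter region (chr4:119539681-119539880) read 35.3 and 28.4 in MUT DMM, against 0, 27.8 and 23.7 in WT DMM, and limma's adjusted p was 0.729. There both MUT DMM libraries lay above every WT DMM library.

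**Figure D3:**
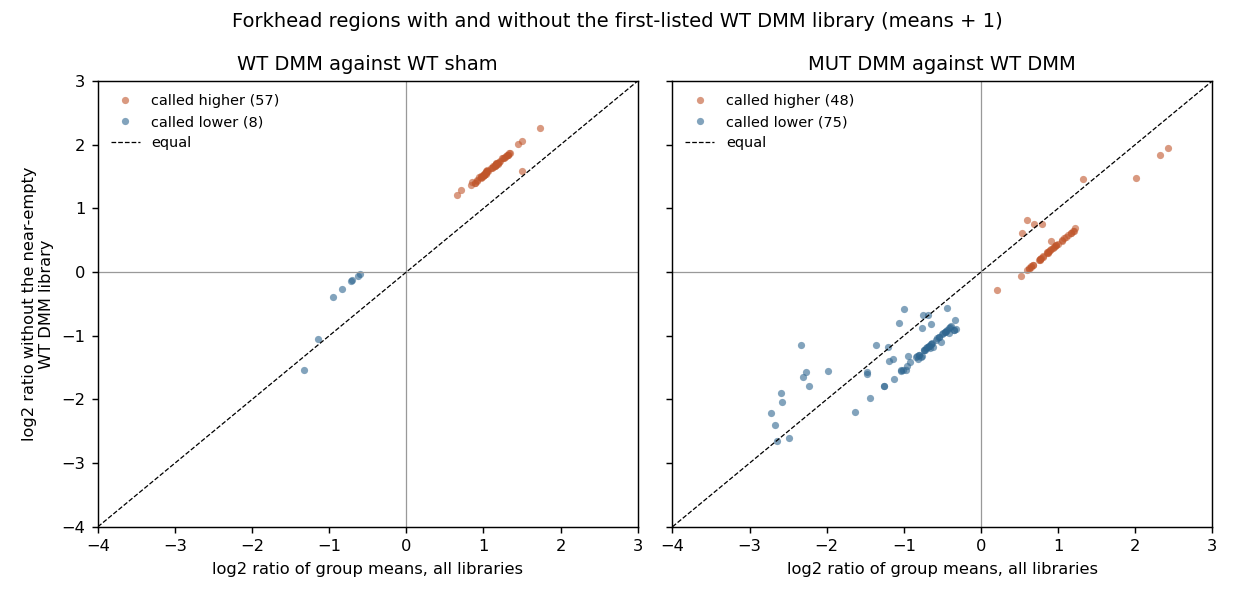
Log2 ratio of group means (each plus 1) of every called forkhead region with all libraries on the horizontal axis and without the first-listed WT DMM library on the vertical axis, for WT DMM against WT sham on the left and MUT DMM against WT DMM on the right. In the right panel regions called higher lie mostly below the dashed line of equality, with a median of 0.88 with the library and 0.39 without it.

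The nearly empty library shifted the ratios of higher and lower regions the same way. It was at 0 in 41 of the 48 regions called higher in MUT DMM (85.4%, against 69.7% of all regions called higher) and in 49 of the 75 called lower. Without it the median log2 ratio of the higher regions was 0.39, against 0.88 with it, and that of the lower regions was -1.19, against -0.77. Group means lay 1.5-fold or more apart in 14 of the 48 higher regions without it (55.9% of all regions called higher) and in 45 of 48 with it (93.5% of all). For the lower regions these counts were 74 of 75 without it (98.1% of all) and 65 of 75 with it (93.0% of all). The groups did not overlap in 25 of the 48 higher and 22 of the 75 lower regions (67.0% and 28.6% of all). Without the library these were 26 and 65 (70.5% and 81.7% of all). limma called 0 forkhead regions and 0.0% of all regions, with 7 of 125 forkhead regions (5.60%) and 7.49% of all regions at an unadjusted p under 0.05. Without the library it again called 0, with 27 forkhead regions (21.6%) and 34.6% of all at an unadjusted p under 0.05.

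MUT DMM knees, set against WT sham knees, gave the largest set of regions. These groups differ in both genotype and surgery, whose parts cannot be told apart in this table. Of 150 regions 149 were called, 55 higher and 94 lower in MUT DMM (99.3% of all listed regions were called, 43.2% higher and 56.1% lower). The region that was not called lay at Foxp4, with an adjusted p of 0.0598 in the authors' deposited table. The share higher was 36.9% of called forkhead regions and 43.5% of all called regions. The median of higher regions was 43.9 in MUT DMM and 19.3 in WT sham, and that of lower regions was 0.735 and 11.6. No reads from either MUT DMM library fell in 38 of the 94 lower regions (40.4%, against 37.6% of all lower regions), whose sham means ran from 3.97 to 11.6. A count of 0 in the deeper library allows up to 2.21 normalized counts (3 reads, counting error only), and in the shallower library up to 28.3, so the contrast in these regions rests on the deeper library.

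Foxn3 had the most called regions of any forkhead gene in this table, 4 higher and 24 lower in MUT DMM. Foxn3 is known as a repressor acting in the DNA damage checkpoint. Of its 24 lower regions, 16 had a sham mean of 10 or more and 9 had no read in either MUT DMM library. A region inside the gene (chr12:99313381-99313960), named after its values were seen, read 3.68 and 9.45 in MUT DMM, against 59.9, 34.7 and 34.7 in WT sham. The groups were far apart, and limma's log2 difference was -2.61 ± 0.50 (SE, adjusted p = 0.0126). The called Foxn region of smallest adjusted p lay inside Foxn1 (chr11:78360361-78360740), the gene known for thymus and hair development. It read 0 in both MUT DMM libraries, against 10.6, 11.6 and 12.5 in WT sham (limma adjusted p = 0.00472).

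The 3 Foxp genes differed in their counts. Foxp1 had 7 higher and 15 lower regions in MUT DMM, Foxp2 12 higher and 4 lower, and Foxp4 7 lower and none higher. Of the 12 higher Foxp2 regions, 6 had sham means of 36.2 to 118 and MUT DMM means of 57.1 to 175. The other 6 had sham means of 0.27 to 3.88 and MUT DMM means of 6.20 to 22.2. Such levels rest on few reads. Over the 22 higher forkhead regions with a sham mean under 10, the medians were 2 reads in the shallower and 4 in the deeper MUT DMM library. At Foxp4 the 4 lower regions with a sham mean of 10 or more ran from 7.67 to 48.9 in MUT DMM, and from 20.3 to 99.1 in WT sham. The called Foxp region of smallest adjusted p was inside Foxp1 (chr6:98948841-98949080). It read 98.7 and 66.1 in MUT DMM, against 136, 139 and 130 in WT sham, and its groups did not overlap, but limma's adjusted p was 0.110. Whether the shares differ between the paralogs was not tested.

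Foxo genes had 6 higher and 18 lower regions in MUT DMM. Foxo3 had 4 higher and 9 lower, Foxo1 2 and 6, Foxo6 2 lower and Foxo4 1 lower. The region of smallest adjusted p inside Foxo3 (chr10:42185881-42186160) read 0 in both MUT DMM libraries, against 10.1, 11.6 and 6.38 in WT sham (limma adjusted p = 0.00472). Downstream of Foxo1, at more than 100 kb from its start site, neighbouring regions went opposite ways. One (chr3:52405321-52405540) read 0 in both MUT DMM libraries, against 3.18, 12.7 and 5.27 in WT sham. The next (chr3:52405601-52405800) read 2.21 and 9.45 in MUT DMM, against 1.06, 0 and 0. These Foxo1 regions were named after their values were seen, and in the next one the MUT DMM values rested on 3 reads and 1 read.

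Foxk regions, 5 at Foxk1 and 2 at Foxk2, were all lower in MUT DMM than in WT sham. The region inside Foxk2 (chr11:121274281-121274660) read 0 in both MUT DMM libraries, against 11.7, 11.6 and 7.21 in WT sham (limma adjusted p = 0.00472). Foxa had 4 higher regions and none lower, and Foxb 3 and none. The Foxa2 region (chr2:148045061-148045540), which reaches into its promoter window, read 135 and 246 in MUT DMM, against 77.9, 102 and 95.4 in WT sham. It was among the strongest signals in the family, and limma's log2 difference was 0.99 ± 0.39 (SE, adjusted p = 0.0870). The Foxb2 region (chr19:16876901-16877220) read 112 and 123, against 66.8, 63.7 and 72.4. In both regions every MUT DMM library lay above every sham library.

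The Foxp1 promoter region (chr6:99521001-99521220) was higher in MUT DMM, at 30.2 and 75.6, against 24.9, 20.8 and 26.3 in WT sham. None of the 3 CCGG in the printed window lies inside that region itself. The shallower MUT DMM value was 8 reads, and limma's adjusted p was 0.132. Foxj and Foxl had 2 higher and 2 lower each, Foxd 2 and 1, Foxc 1 and 1, Foxi and Foxm 1 and 2 each, Foxf and Foxq 1 higher each, and Foxs 1 lower. At Foxs1 (chr2:152932581-152932940) the MUT DMM libraries read 129 and 18.9, against 146, 159 and 162 in WT sham, so the shallower library held most of the difference with 2 reads.

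Regions without a MUT DMM read included those of smallest adjusted p at Foxc1 and Foxj2. Inside Foxc1 (chr13:31806741-31807000) both MUT DMM libraries were at 0, against 8.48, 5.79 and 8.60 in WT sham (limma adjusted p = 0.00472). Inside Foxj2 (chr6:122838141-122838420) both were at 0, against 4.77, 12.7 and 7.21 (limma adjusted p = 0.0054). Outside Foxd4 (chr19:24889281-24889660) they read 0.74 and 0, against 7.95, 12.7 and 13.0 (limma adjusted p = 0.00477). The groups did not overlap in these 3 regions. Beside Foxi3 (chr6:70955961-70956180) the libraries read 10.3 and 0 in MUT DMM, against 118, 3.47 and 14.4 in WT sham, where the first sham library stood far above the rest and the groups overlapped. Among higher regions, the one just before the start of Foxl2 (chr9:98955101-98955360) read 24.3 and 56.7 in MUT DMM, against 14.9, 15.1 and 19.1 in WT sham. Foxq1 (chr13:31559221-31559420) read 23.6 and 66.1, against 13.3, 19.7 and 21.4. The region beside Foxf1 (chr8:121083121-121083340), a gene known from lung mesenchyme, read 65.5 and 47.2, against 39.8, 45.1 and 37.2. In these 3 every MUT DMM library lay above every sham library, but limma's adjusted p was 0.0897, 0.130 and 0.241, and the Foxf1 difference turned negative under median-ratio scaling. Inside Foxm1 (chr6:128363981-128364260) the MUT DMM libraries read 1.47 and 18.9, 2 reads each, against 0.53, 2.32 and 0.83, and the groups overlapped.

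Groups did not overlap in 40 of the 55 higher and 80 of the 94 lower regions (75.2% and 87.5% of all regions called in those directions). limma called 65 forkhead regions at 20 genes, 6 higher and 59 lower in MUT DMM, among 45.4% of all regions (6.38% higher and 39.0% lower), with adjusted p from 0.00472 to 0.0472. Foxn3 had 15 of them, Foxp1 10, Foxo1 7 and Foxo3 6. Of the 6 higher calls, 5, at Foxo1 (2), Foxo3, Foxp1 and Foxp2, rested on 1 read of the shallower MUT DMM library and 2 to 4 of the deeper one. Over the 22 higher regions with a sham mean under 10 the shallower library held at most 4 reads. Of the 94 lower regions the shallower library was at 0 in 64, and both MUT DMM libraries were in 38. A 0 in both leaves no spread within MUT DMM, and 1 read of the shallower library is worth 9.45 normalized counts. With a mean over libraries of at least 5, limma called 18 of 103 forkhead regions and 8243 of 51453 regions in all.

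Position relative to the start site went with direction in every table, among forkhead regions and also among all called regions. In both tables of mutant knees the share higher was larger near start sites, and in WT DMM against WT sham it was smaller. Start sites were available for 28 forkhead genes. In MUT DMM against WT DMM, 14 of 20 regions within 3 kb of a start site were higher, and 12 of 55 farther away were. In MUT DMM against WT sham the counts were 12 of 16 and 22 of 93. Over all called regions the shares higher were 63.0% and 27.7% in the first of these tables and 47.4% and 39.0% in the second. In WT DMM against WT sham 6 of 10 near regions and 31 of 35 far ones were higher, against 83.2% and 94.0% of all. Both mutant tables share the MUT DMM libraries. Level moved with direction in WT DMM against WT sham and in MUT DMM against WT DMM, as given above. In MUT DMM against WT sham, 22 of 61 forkhead regions with a sham mean under 10 were higher (36.1%). With a sham mean of 10 or more, 33 of 88 were (37.5%). Over all called regions of that comparison the shares higher were 40.3% and 46.3%. The part of level in the start-site pattern was not tested.

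**Figure D4:**
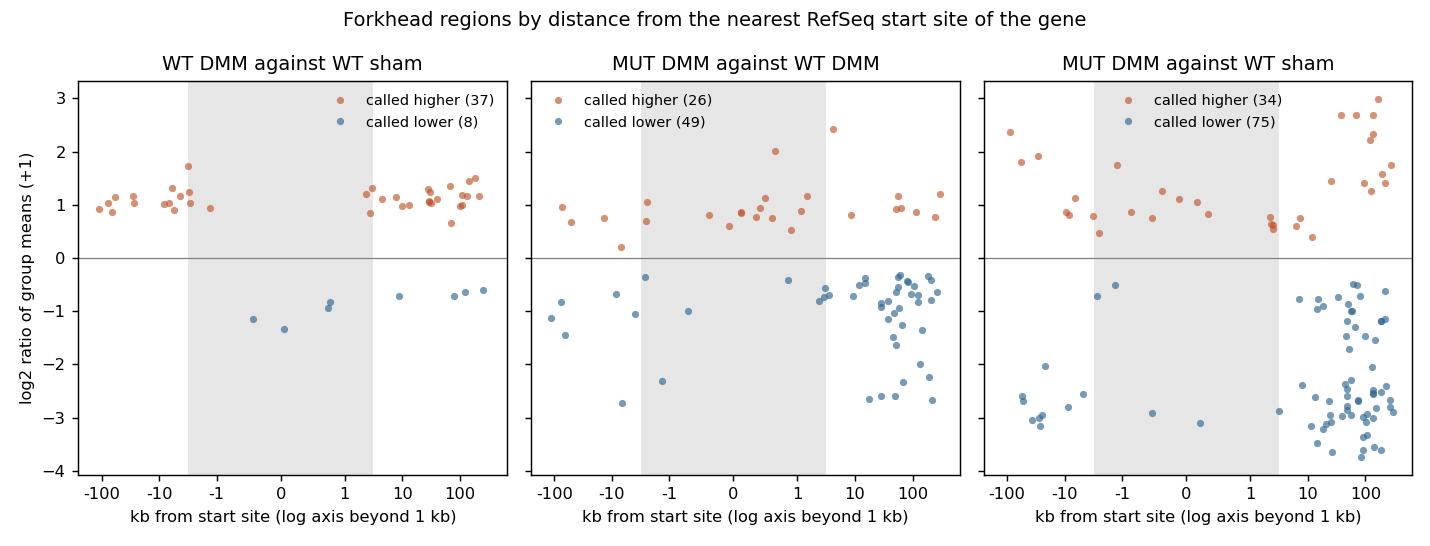
Log2 ratio of group means (each plus 1) of called forkhead regions against distance from the nearest start site of the gene in kb, negative upstream, on an axis that is linear within 1 kb and logarithmic beyond. The grey band marks 3 kb on either side of the start site, where 14 of 20 regions were higher in MUT DMM against WT DMM and 12 of 16 in MUT DMM against WT sham. Over all called regions within 3 kb of a start site the shares higher were 63.0% and 47.4%.

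Long genes, of 20 kb or more, held most regions of the family, and their density differed. In MUT DMM against WT sham they held 116 called forkhead regions and shorter genes 33. Over all called regions of genes with a known length the counts were 36134 and 23782, so most of these lay at long genes too. Densities over all genes were not computed. Within gene bounds, Foxn3 (chr12:99190081-99563667) held 25 called regions in MUT DMM against WT sham, or 6.69 per 100 kb. Foxp1, the longest at 597.4 kb, held 21 or 3.52 per 100 kb, and Foxp2, at 540.6 kb, held 9 or 1.66. Foxp4, at 57.5 kb, held 5 or 8.70 per 100 kb. Denser still were Foxn1, at 29.2 kb, with 4 or 13.7 per 100 kb, and Foxo6, at 20.2 kb, with 2 or 9.91. In MUT DMM against WT DMM, Foxn3 held 2.68, Foxp1 2.18, Foxp2 1.66 and Foxp4 5.22 per 100 kb, with Foxo6 at 14.9 and Foxk1 at 8.26. In WT DMM against WT sham, Foxn3 held 1.07, Foxp1 1.51, Foxp2 1.48, Foxk2 6.01 and Foxp4 none. Exons and introns were not assigned.

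No forkhead region overlapped between all 3 tables. Between pairs of tables there were 36 overlaps, 11 between WT DMM against WT sham and MUT DMM against WT DMM, 6 between WT DMM against WT sham and MUT DMM against WT sham, and 19 between both mutant tables. Each pair of tables shares libraries, so no tally of directions is given. Apart from the Foxk2 promoter, the examples below were named after their values were seen. The Foxk2 promoter region of the first table (chr11:121259901-121260160) was at 24.4 in WT DMM and 63.0 in WT sham. A longer region that overlaps it (chr11:121259701-121260120) was at 56.7 in MUT DMM against 37.1 in WT DMM. These tables were scaled separately, and in each the groups overlapped. At Foxn3 (chr12:99330021-99330260) the mean was 50.7 in WT DMM and 79.1 in WT sham. A region that overlaps only a short end of it (chr12:99329841-99330060) averaged 10.6 in MUT DMM and 1.5 in WT sham. These are largely different stretches, and their WT sham means lie far apart, so they are not readings of the same signal. Elsewhere in Foxn3 (chr12:99313381-99313940) the mean was 2.36 in MUT DMM against 12.3 in WT DMM, and in the table against sham 6.57 in MUT DMM and 43.1 in WT sham. At Foxp4 (chr17:47866461-47867060) it was 12.3 in MUT DMM against 24.5 in WT DMM, and 24.5 in MUT DMM and 49.8 in WT sham. Inside Foxp4 (chr17:47878301-47878680) it was 3.53 in MUT DMM against 11.6 in WT DMM, and 9.88 in MUT DMM and 29.2 in WT sham. Outside the bounds of Foxp2 (chr6:15524281-15524600) it was 59.0 in MUT DMM against 31.1 in WT DMM, and 171 in MUT DMM and 118 in WT sham.

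**Figure D5:**
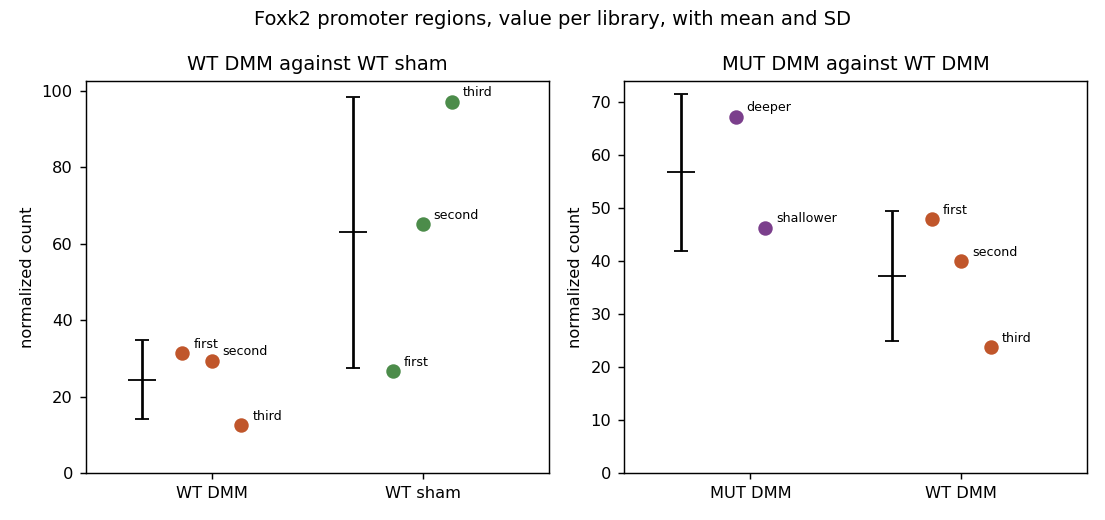
Normalized count of the region called over the Foxk2 promoter in each library, WT DMM against WT sham on the left and MUT DMM against WT DMM on the right. The mean and SD are drawn as a bar beside each group, and the bounds of the region differ between the panels. The levels of the 2 panels are scaled separately, and in both panels the groups overlap at 1 library.

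Genes that regulate Foxo factors, and genes known as their targets, were counted in the same way. Of 26 regulators, 18 had a higher and 6 a lower region in WT DMM against WT sham, 17 and 22 in MUT DMM against WT DMM, and 17 and 18 in MUT DMM against WT sham. Of 26 targets the counts were 12 and 4, 13 and 15, and 13 and 16 in the same order of tables. Of the 44 forkhead genes they were 20 and 6, 26 and 24, and 21 and 22. The shares over all 21896 protein-coding genes are given above with the marker lists. These counts were not corrected for gene length. The regulators with most regions, named after their counts were seen, were Pik3r1, the regulatory subunit of PI3-kinase, and Igf1r, the receptor of insulin-like growth factor. Pik3r1 had 11 higher and 0 lower regions in WT DMM against WT sham, 1 and 16 in MUT DMM against WT DMM, and 0 and 7 in MUT DMM against WT sham. Igf1r had 7 and 1, 1 and 12, and 3 and 14. Among targets, the transcriptional repressor Bcl6 had 2 higher and 1 lower, 1 and 10, and 4 and 3, and Sesn3, a stress-induced sestrin, had 5 and 0, 1 and 3, and 2 and 5.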

How the data were processed

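Knee cartilage DNA was profiled by RRHP with MspI digestion and 15 PCR cycles, per the labels' protocols. The tools named in the submitters' processing notes are HISAT2 2.1.0, Trim Galore 0.5.0, bcl2fastq 2.20.0, bedtools and SAMtools, and the genome build is mm10. Region caller and scaling factors are not given in the sources used here. Of the authors' tables there were 3, 1 per comparison. Per the file headers they hold normalized counts of each library joined in a cell, the mean signal of each group, a log2 fold change, a score, a ratio, and p-values and adjusted p-values. All window p-values in the deposited tables were at most 0.0001.

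Reads were recovered from the deposited values, which were whole multiples of a step, within 0.02, in at least 99.9955% of regions. Libraries are called by the order of their values within a cell, for want of replicate numbers. Directions came from the deposited group means, in which both entries of the identical MUT DMM pair count. Means of distinct libraries, which are the means printed here, kept the direction of every called forkhead region. The design text calls replicates biological without tying each to an animal, so p-values reflect only how these libraries vary, which may be technical. Reads carry no molecular identifiers, so limits set by a count of 0 cover counting error only. limma 3.58.1 in R 4.3.3 was fitted to log2(value + 1) over each whole table with Benjamini-Hochberg adjustment and was tested on simulated data. Count models were not run, because the values are normalized and listed only for regions past the authors' p-value. Alternatives were pseudocounts of 0.5 and 4, filters at a mean of 5 or 10, an adjusted p of 0.01, a limit of 5 kb from the gene, median-ratio scaling, each library left out, and identical entries counted apart. RefSeq (GRCm38.p6) gave gene bounds and promoter windows. Tables were made with Python 3.11.15, pandas 2.3.3 and numpy 2.4.6, and figures with matplotlib 3.10.9.

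The members, gene lists and tests were chosen with earlier results of these data known. Values per library are given for the called region of smallest authors' adjusted p in each subfamily and table (12, 17 and 16 regions, less those of the gene not reported), and for regions at promoter windows, chosen by position. Any other region is said to be named after its values were seen. MUT sham and the background control were not analysed here. One gene of the family counts in the totals but is not reported here by itself.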

Additional observations from a re-analysis of the deposited data

How the results depend on the processing

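Of the values recomputed for counts and limma calls, 110 stayed within 1.5 times the value given and 9 did not. That limit does not track which direction held the majority, which turned within it in MUT DMM against WT DMM. Requiring a higher group mean of 10 left 15 regions higher in WT DMM against WT sham, 31 lower in MUT DMM against WT DMM and 55 lower in MUT DMM against WT sham. A limit of 5 kb from the gene left 36 higher in WT DMM against WT sham. Leaving out each library gave 38 to 57 higher and 8 to 27 lower there (27 without the third WT DMM library), and 0 to 46 limma calls. For MUT DMM against WT sham, limma called 42 to 104 forkhead regions with each library left out (104 without the deeper MUT DMM library, 42 without the third sham library) and 18 when the mean over libraries had to reach 5. With each library left out, counts of MUT DMM against WT DMM ran from 46 to 72 higher and from 51 to 77 lower. At 72 higher and 51 lower the majority was reversed, so it depended on which library was left out.

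Of the single regions, 6 changed sign. Without the third WT DMM library the difference in means was -0.79 at Foxb2 (16900961) and -0.98 at Foxj2 (122817121) in WT DMM against WT sham, and 0.13 at Foxa3 (19019901) and 2.01 at Foxi1 (34204901) in MUT DMM against WT DMM. Without the deeper MUT DMM library it was 0.1 at Foxi1 and 0.37 at Foxr1 (44439921). Left-out ranges were -0.79 to 14.31 at Foxb2, -0.98 to 6.31 at Foxj2, -3.82 to 0.13 at Foxa3, -3.16 to 2.01 at Foxi1 and -2.64 to 0.37 at Foxr1. At Foxf1 (121083121) in MUT DMM against WT sham it was -1.85 under median-ratio scaling, which moved the median log2 ratio of all regions by -0.397, 0.164 and -0.473 in the 3 tables. The cause was not tested, except that fewer libraries or regions entered by construction. No paired analysis was possible because the deposited columns carry no replicate numbers. Depth limits the regions read by a few reads in the first WT DMM and shallower MUT DMM libraries.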
